A study of Mus musculus with 18 samples.

Results

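The comparison described here set cells with the guide RNA sgPpia#4.1 against cells with the control guide sgBgal after p53 had been restored. It used 6 of the 18 RNA-sequencing samples, 1 with each guide from each of 3 mouse small cell lung cancer cell lines (4711-1, 4711-18 and 4716-11), and the samples were paired by cell line. A gene was included if it had a level of at least 1 TPM (transcripts of a gene per fixed number of all transcripts in a sample, corrected for length) in at least 3 of the 6 samples. This gave 12006 of the 25239 genes in the deposited table, or 47.6%. Of these, 10913 reached 1 TPM in all 6 samples and 299 in exactly 3 of them. Another 7515 genes were above 0 TPM in at least 1 of the 6 samples without meeting the rule, and 5718 were listed at 0 in all 6.

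The lines were grown from separate lung tumors of mice in which adenoviral Cre had deleted Rb1 and Rbl2 and had inverted a gene trap in Trp53 that shuts p53 off. All 18 samples therefore share the loss of Rb1 and Rbl2, and p53 was off in all lines until it was restored. They are of Type D, the class of lines that the study defined by lysis of the cells some days after p53 returns. Each line carried lentiviral Cas9 with sgBgal, with sgPpia#3.2 (exon 3 of Ppia) or with sgPpia#4.1 (exon 4). Restored samples had been treated for 72 h with 4-hydroxytamoxifen, which activates a FlpO recombinase that removes the trap, and Control samples with vehicle. A guide population holds cells with different edits. The labels name each line once per condition, so no error below comes from repeated cultures of a line. Each standard error (SE) comes from a fit of all 18 samples and pools the spread between 3 cell lines over 6 conditions. It is not the spread of the 3 compared pairs alone.

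Ppia encodes cyclophilin A, an abundant cytosolic prolyl isomerase and the main cellular target of cyclosporin A. Cyclophilins speed the turning of proline bonds during protein folding and remodelling. p53 is a transcription factor that, once active, raises genes for cell cycle arrest (Cdkn1a), apoptosis (Bax, Bbc3), DNA repair and its own inhibitor Mdm2. The question of the comparison is whether cells with less cyclophilin A express a different set of genes, p53 targets above all, while p53 is on.

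sgPpia#4.1 was directed at exon 4 of Ppia, which lies at chr11:6419113-6419285 on the plus strand in GRCm38 and is coding over its whole 173 bases in the GENCODE M21 transcript with the full open reading frame. Its sequence is shown because it holds the edited site. The capitals mark each GG on the plus strand that has a base of the exon before it, as Cas9 requires any base and GG beside a target. The GG that opens the exon is therefore in lower case. There are 12 such sites on this strand and 9 on the other, and the one used by the guide is not marked.
Ppia exon 4: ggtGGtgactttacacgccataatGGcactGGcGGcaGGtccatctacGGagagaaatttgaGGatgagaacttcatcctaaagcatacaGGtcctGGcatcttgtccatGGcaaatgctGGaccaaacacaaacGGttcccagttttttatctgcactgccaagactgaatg

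Ppia was lower with sgPpia#4.1 in each of the 3 lines. In Restored cells with sgBgal it stood at 2060 TPM in 4711-1, 1551 in 4711-18 and 2730 in 4716-11. With sgPpia#4.1 the values were 1678, 1191 and 1765 TPM in the same order. The sgPpia#4.1 level was thus 81.4%, 76.8% and 64.6% of that in the paired sgBgal sample, and the ranges of both groups overlapped. The mean was 1545 ± 309 TPM with sgPpia#4.1 and 2114 ± 591 TPM with sgBgal (SD, n = 3 each). On the log2(TPM + 1) scale used for all tests the difference was -0.44 (SE 0.15, limma unadjusted p = 0.011), and its Benjamini-Hochberg adjusted p over all 12006 genes was 0.955. An exact two-sided sign-flip test over the 3 lines gave p = 0.25, the smallest value that 3 pairs allow. TPM count edited and unedited transcripts alike, so the values give the amount of Ppia RNA and not of functional protein.

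Before p53 restoration the same guide left Ppia at 63.3%, 65.4% and 68.5% of the paired sgBgal sample (4711-1, 4711-18, 4716-11). Set beside these, the Restored samples with sgPpia#3.2 held 42.4%, 49.6% and 45.2% of the sgBgal Restored level, a value that rests on the same control samples. Of the transcripts of other genes, those of 37 genes aligned to the Ppia coding sequence over at least 100 bases at 90% identity or more. Most are processed pseudogenes, only 2 of the 37 are in the deposited table, and 1 was tested. That gene is Gclm, a subunit of the enzyme that makes the glutathione precursor, of which an annotated transcript shares 244 identical bases with Ppia. Reads from these stretches cannot be assigned with certainty. Gclm measured 149, 281 and 146 TPM with sgBgal and 152, 208 and 113 TPM with sgPpia#4.1 (log2 difference -0.26, SE 0.23).

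**Figure D1:**
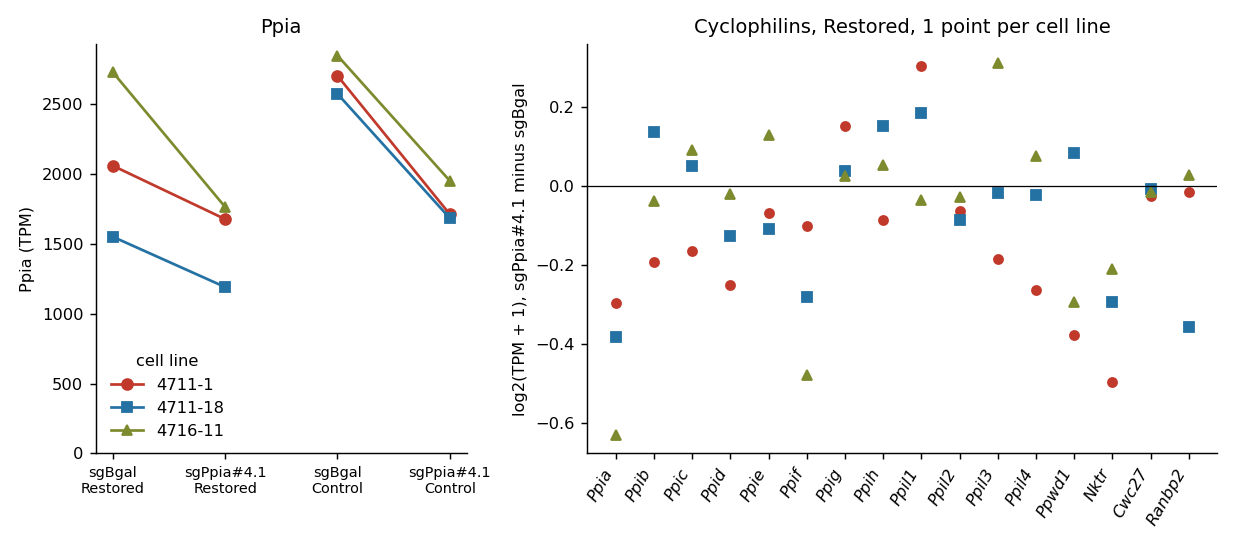
Left, Ppia in TPM in the sgBgal and sgPpia#4.1 samples of 3 cell lines, Restored and Control, with a line joining the 2 samples of a cell line. Right, the log2(TPM + 1) difference between sgPpia#4.1 and sgBgal in Restored cells for Ppia and 15 other cyclophilins, 1 point per cell line. Ppia is the lowest point of the right panel in 4711-18 and 4716-11 and is lower in each pair of the left panel, while the other cyclophilins lie on both sides of 0.

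Of 16 tested cyclophilins, Ppia included, 6 were lower in all 3 lines and 1 was higher, against 26.7% and 6.69% of all genes, and Ppia was the only one at an unadjusted p under 0.05. In 4711-1 14 of the 16 were lower (12 in Control cells), in 4711-18 10 and in 4716-11 9. Ppif, the mitochondrial cyclophilin D of the permeability pore, measured 13.9, 27.0 and 13.9 TPM with sgBgal and 12.9, 22.1 and 9.71 TPM with sgPpia#4.1. Its difference was -0.29 (SE 0.14, unadjusted p = 0.061). Nktr, a large nuclear cyclophilin with splicing-factor-like repeats, was at 38.2, 38.2 and 24.4 TPM against 26.8, 31.0 and 20.9 TPM, a difference of -0.33 (SE 0.16, unadjusted p = 0.061). Ppib, the endoplasmic reticulum cyclophilin, lay within its own spread at 134 to 177 TPM with sgBgal and 137 to 172 TPM with sgPpia#4.1. Ppie, a nuclear cyclophilin of the spliceosome, was likewise at 63.7 to 67.9 and 60.7 to 72.8 TPM. Among the FKBP and parvulin isomerases, which do the same chemistry in unrelated folds, 2 of 16 were higher and 1 lower at an unadjusted p under 0.05, against 0.466% and 2.87% of all genes, and none passed the adjusted threshold. Fkbp8 (0.25, unadjusted p = 0.039) and Fkbp15 (-0.28, unadjusted p = 0.013) were among them.

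Genes beside Ppia stayed close to their sgBgal level. Of the 13 other tested genes within 250 kb of it on chromosome 11, the long ones ranged from -0.25 for Snhg15, a snoRNA host transcript, to 0.21 for H2az2, a histone variant gene. The neighbours on either side, Zmiz2 and H2az2, differed by -0.10 (SE 0.13) and 0.21 (SE 0.16). The short entry Mir7651, inside Zmiz2, was at 0.812, 0 and 0 TPM with sgBgal and 1.64, 1.502 and 1.51 TPM with sgPpia#4.1 (log2 difference 1.07). It met the inclusion rule only through its sgPpia#4.1 samples, so the rule itself favours a difference in this direction.

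Across all genes, no gene was called. The call required an adjusted p under 0.05 and a log2 difference of at least 1 in either direction, in a limma fit of all 18 samples with 1 mean per condition and the cell line as a block. It was met by 0 of 12006 genes (0%), and 0 met the adjusted p alone, the smallest adjusted p being 0.955. At an unadjusted p under 0.05 there were 345 lower genes (2.87%) and 56 higher ones (0.466%). This split depended on the scale. With TPM rescaled by median-of-ratios factors it became 125 lower and 183 higher, and without the cell line as a block it was 43 lower and 9 higher. Without line 4711-1 it was 116 lower and 31 higher, without 4711-18 668 and 167, and without 4716-11 189 and 43. The median difference over all genes was -0.075, and 0.0064 after rescaling. In all 3 lines 3210 genes (26.7%) were lower and 803 (6.69%) higher.

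**Figure D2:**
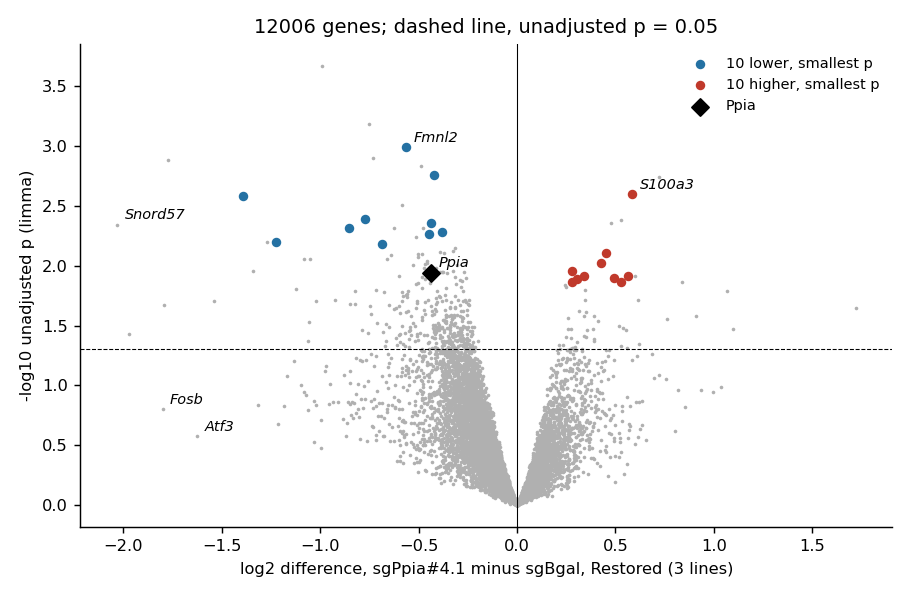
Each point is 1 of the 12006 genes, with the log2 difference between sgPpia#4.1 and sgBgal in Restored cells on the x axis and -log10 of the unadjusted limma p on the y axis. Blue and red mark the 10 lower and 10 higher genes with the smallest p among those of the same sign in all lines with a mean of at least 5 TPM, and the black diamond Ppia. Atf3 and Fosb have large differences with a large spread between lines, and no gene reached an adjusted p under 0.05.

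Among the genes of the same sign in all 3 lines and a mean of at least 5 TPM, the smallest unadjusted p on the lower side belonged to Fmnl2, a formin that builds actin filaments at the cell front. It measured 8.66, 6.93 and 5.75 TPM with sgBgal and 4.30, 5.75 and 3.48 TPM with sgPpia#4.1, a difference of -0.56 (SE 0.14, unadjusted p = 0.0010). Ddhd1, a phospholipase, was at 5.65, 7.06 and 4.98 TPM against 3.64, 4.78 and 4.00 TPM, which is -0.42 (SE 0.11). Its groups did not overlap, as for 206 lower (1.72%) and 62 higher genes (0.516%). Cep192, a centrosome scaffold, was at 14.5, 14.5 and 12.8 TPM against 10.7, 11.5 and 9.31 TPM. Rapgef6, an exchange factor for Rap GTPases, was at 11.1, 12.4 and 8.16 TPM against 6.47, 9.65 and 6.47 TPM. Cep192 differed by a similar amount in each pair (-0.41, -0.32 and -0.42), and Rapgef6 most in 4711-1 (-0.69, -0.33 and -0.29). Nfxl1 (-0.45), Mab21l3 (-0.69) and 0610040B10Rik (-0.77) were also lower in each pair, with the largest difference in 4711-1 (-0.76, -1.36 and -1.45), and Snord73a, Snora31 and Mir1949, entries for short RNAs, completed the lower 10.

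On the higher side the smallest p belonged to S100a3, a calcium-binding protein of the S100 family, at 39.6, 13.1 and 48.7 TPM with sgBgal and 77.4, 19.02 and 60.4 TPM with sgPpia#4.1. The difference was 0.59 (SE 0.16, unadjusted p = 0.0025). Spsb2, a substrate receptor of a ubiquitin ligase, was at 20.1, 21.4 and 24.5 TPM against 31.7, 28.4 and 31.0 TPM. Tbcc, a tubulin-folding cofactor, was at 21.4, 26.0 and 25.6 TPM against 32.1, 35.5 and 31.6 TPM. For both of these genes every sgPpia#4.1 sample was above every sgBgal sample. Tspo, a cholesterol-binding protein of the outer mitochondrial membrane, was at 883, 999 and 1601 TPM against 1298, 1287 and 1717 TPM, a difference of 0.34 (SE 0.12). The 10 also held Tm7sf2, a sterol reductase (0.49), Gemin7 of the SMN complex (0.28), Clic3 (0.56), Abhd17a (0.31), 0610012G03Rik (0.28) and Tmem121 (0.53). Tmem121 was at 12.9 and 28.9 TPM in 4711-1 and near 1 TPM in the other lines.

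The largest differences came from entries for very short RNAs. Only 24 genes had the same sign in all lines and a mean difference of at least 1, 21 of them lower and 3 higher. Some, such as Snord11 and Mir7651, reached 1 TPM only in the group where they were higher, so the inclusion rule itself shaped this count. Of the 24, 18 were snoRNA or microRNA entries and 17 had annotated transcripts of up to 200 bases. Snord57 was at 4.13, 6.40 and 2.80 TPM with sgBgal and at 1.11, 0 and 0 TPM with sgPpia#4.1. Snord11 was at 6.60, 3.20 and 5.04 TPM against 0.556, 0.763 and 0.769 TPM, and so met the inclusion rule only through its sgBgal samples. Mir23a was at 11.1, 4.69 and 7.51 TPM against 1.40, 2.56 and 0.644 TPM. The 6 that are not such entries were Fosb, 2900060B14Rik, Sgk1, Csf2, Gzmm and Lcn2, named here after their values were seen. Over the 83 snoRNA entries tested, a group formed after the values were seen, the median difference was -0.63 in 4711-1, -0.065 in 4711-18 and -0.20 in 4716-11.

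The differences between the guides were then compared between the lines. The correlation of the difference over the 12006 genes was 0.081 between 4711-1 and 4711-18, -0.038 between 4711-1 and 4716-11 and 0.016 between 4711-18 and 4716-11. These values are across genes, which are not independent. Within a line the Restored difference and the Control difference come from separate libraries of the same cells, and their correlation was 0.51 in 4711-1, 0.31 in 4711-18 and 0.21 in 4716-11. Line 4711-1 had the widest differences, with an SD over genes of 0.44 against 0.26 in each of the other lines. A difference of at least 1 was seen for 337 lower (2.81%) and 142 higher genes (1.18%) in 4711-1, for 48 (0.4%) and 40 (0.333%) in 4711-18, and for 91 (0.758%) and 23 (0.192%) in 4716-11. In 4711-1, 78 of the 337 lower genes were also lower by 1 in Control cells, which is 23.1% of the Restored list and 60% of the 130 genes (1.08%) in the Control list. The sgPpia#4.1 Restored sample of 4711-1 was 1.49 times as deep as its sgBgal pair, judged from the steps between low values, against 1.08 and 1.03 for the pair of 4711-18 and 1.08 and 1.48 for that of 4716-11 (sgPpia#4.1 first). The part of depth in these counts was not tested.

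**Figure D3:**
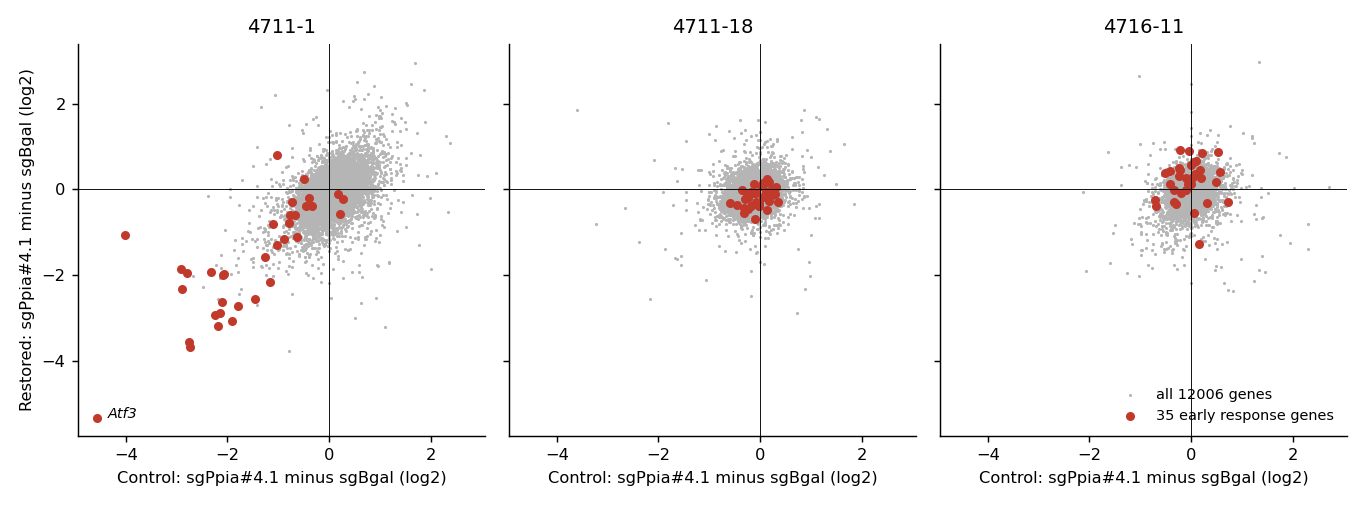
Difference between sgPpia#4.1 and sgBgal in log2(TPM + 1) for each gene in Control cells (x axis) and Restored cells (y axis), 1 panel per cell line. Grey points are the 12006 genes and red points 35 immediate-early and early response genes, chosen after their values were seen. In 4711-1 the red points reach below -5 on the y axis for Atf3, while in 4711-18 and 4716-11 they lie among the other genes.

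In 4711-1 the genes with the lowest differences included many that cells switch on within minutes of a growth factor or stress signal, and these were chosen for description after their values were seen. Snord70 and other snoRNA entries and the histone genes H2bc4, H1f3, H2bc8 and H2ac11 were among the lowest too. Atf3, a stress-induced transcription factor, was at 285 TPM with sgBgal and at 6.05 TPM with sgPpia#4.1 in this line. The paired values were 592 and 555 TPM in 4711-18 and 461 and 681 TPM in 4716-11. Over 3 lines its mean difference was -1.62, with an unadjusted limma p of 0.27. The pair differences behind it were unequal, at -5.34 in 4711-1, -0.092 in 4711-18 and 0.56 in 4716-11. Fos, a subunit of the AP-1 factor, was at 682 and 80.3 TPM in 4711-1, 299 and 258 TPM in 4711-18 and 405 and 461 TPM in 4716-11 (sgBgal first). Its partner Jun was at 248 and 31.6 TPM in 4711-1, 272 and 218 TPM in 4711-18 and 205 and 320 TPM in 4716-11. Only the 4711-1 pair is low for these genes.

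Dusp1, the phosphatase that switches off MAP kinases, was at 1932 and 260 TPM in 4711-1, 2039 and 1574 TPM in 4711-18 and 1214 and 1460 TPM in 4716-11. Egr1, a zinc-finger factor of the same response, was at 1188 and 201 TPM in 4711-1 and Ccn2, a secreted matrix protein, at 195 and 30.7 TPM. Ppp1r15a, which restores translation after stress, was at 255 and 56.6 TPM. Of 35 such genes tested, 22 were lower by at least 1 in 4711-1, none in 4711-18 and 1, Fosb, in 4716-11. The shares over all genes were 2.81%, 0.4% and 0.758%. Their median difference was -1.59, -0.13 and 0.26 in these lines, against -0.079, -0.099 and -0.037 over all genes. The 22 and the median of 4711-1 follow in part from how the genes were chosen. The sgPpia#4.1 Restored sample of 4711-1 was the lowest of the 6 for 23 of the 35 genes and the lowest of all 18 for 6 of them, counts that follow in part from how the genes were chosen.

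The Control samples of 4711-1 were alike, though they are separate libraries. There Atf3 stood at 768 TPM with sgBgal and 31.4 TPM with sgPpia#4.1. Again 22 of the 35 genes were lower by at least 1, against 1.08% of all genes. Their median was -1.27, against 0.052 over all genes. In the other 16 libraries Atf3 ranged from 45.7 to 768 TPM with a median of 377 TPM. Low values were not particular to sgPpia#4.1. With sgPpia#3.2, Atf3 was at 428 TPM in Restored 4711-1 cells and at 45.7 TPM in Restored 4711-18 cells, which also held the lowest Fos (32.7 TPM) of the other libraries. A low early response was thus seen with sgPpia#4.1 in 4711-1 and with sgPpia#3.2 in 4711-18, and with neither guide in 4716-11.

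**Figure D4:**
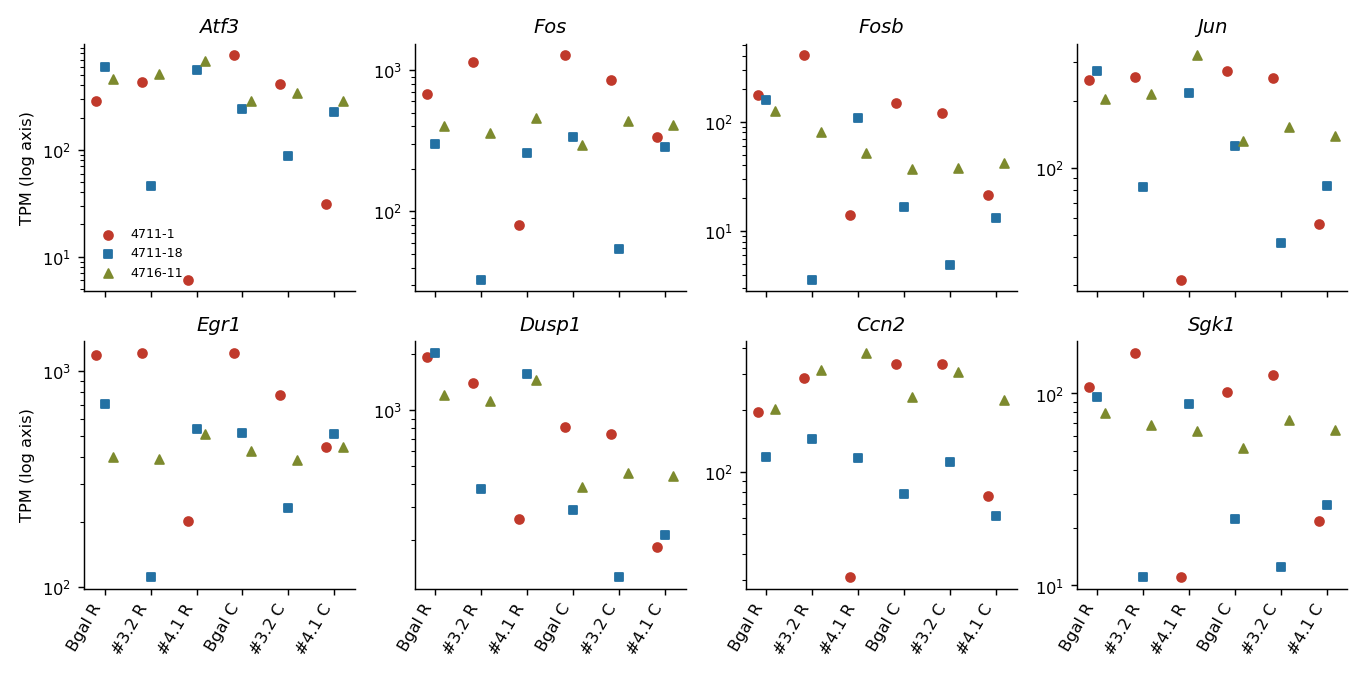
TPM on a log axis of 8 early response genes in all 18 samples, 1 point per sample, for sgBgal, sgPpia#3.2 and sgPpia#4.1 in Restored (R) and Control (C) cells. In Restored cells the red circle of 4711-1 lies below the other lines with sgPpia#4.1 (Atf3 at 6.05 TPM), and the blue square of 4711-18 with sgPpia#3.2 (Atf3 at 45.7 TPM). The early response genes were chosen after their values were seen.

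Among the genes higher by at least 1 with sgPpia#4.1 in 4711-1, 39 of 142 (27.5%) were also higher by 1 in the Control samples of the line, which is 30% of that list. Named after their values were seen, they include Inhba, a subunit of activin, at 105 and 410 TPM, and Bcl3, a nuclear cofactor of NF-kappaB, at 36.8 and 129 TPM (sgBgal first). In Control 4711-1 cells they were higher by 1.13 and 1.04 on the log2 scale. In 4711-18 Inhba was at 23.7 and 14.6 TPM and Bcl3 at 46.6 and 41.6 TPM. In 4716-11 Inhba was at 40.0 and 32.6 TPM and Bcl3 at 34.4 and 37.1 TPM. The glycolysis genes were higher in 4711-1 as well. There 16 of 17 were higher with a median of 0.33, against -0.035 in 4711-18 and -0.0042 in 4716-11, and in Control 4711-1 cells the count was again 16 of 17. Ldha, which makes lactate, was at 1856 and 2735 TPM in 4711-1, 1647 and 1662 TPM in 4711-18 and 1939 and 1942 TPM in 4716-11.

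Trp53 itself was at the same level with both guides, at 223, 206 and 218 TPM with sgBgal and 200, 219 and 217 TPM with sgPpia#4.1. The difference was -0.023 (SE 0.13, unadjusted p = 0.86). Mdm2, the ubiquitin ligase that p53 induces and that degrades it, was at 1604, 1884 and 1047 TPM with sgBgal and 868, 1613 and 978 TPM with sgPpia#4.1. It was lower in each pair, by 0.89 in 4711-1 and less in the other lines, with a mean difference of -0.40 (SE 0.17, unadjusted p = 0.033). The coactivator Ep300, an acetyltransferase that p53 recruits, was at 36.5, 46.0 and 18.98 TPM against 20.9, 34.6 and 17.9 TPM (-0.42, SE 0.16). Cdkn1a, which encodes the cell cycle inhibitor p21, was at 2125, 3806 and 2158 TPM against 1565, 3386 and 2306 TPM (-0.17, SE 0.25), lower in 2 of 3 pairs.

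Among p53 death targets, Apaf1, the scaffold of the apoptosome, was at 40.4, 49.1 and 22.6 TPM with sgBgal and 21.5, 38.0 and 22.6 TPM with sgPpia#4.1. Its difference of -0.41 (SE 0.15, unadjusted p = 0.019) came from 4711-1 and 4711-18. Eda2r, a death-domain receptor, was at 29.4, 14.3 and 10.9 TPM against 20.2, 10.6 and 5.50 TPM and was lower in each line (-0.60, SE 0.21, unadjusted p = 0.012). Bax, the pore-forming apoptosis effector, was at 1034, 988 and 1069 TPM against 1068, 1127 and 1139 TPM (0.11, SE 0.15). Trp53inp1 (-0.49, SE 0.29) and Pidd1 (-0.34, SE 0.20) did not reach an unadjusted p under 0.05. Among arrest targets, Zmat3 (-0.16, SE 0.10) and Plk3 (-0.55, SE 0.35) had the largest moderated t. Among the repair and metabolic targets it was Ddit4l, an inhibitor of mTOR signalling, at 61.8, 39.3 and 82.0 TPM against 33.4, 30.9 and 54.1 TPM (-0.60, SE 0.23, unadjusted p = 0.022).

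As lists, the p53 targets were lower in 4711-1 and close to all genes in the others. None of the 14 arrest, 14 death and 17 repair and metabolic targets tested was called, and 0, 2 and 1 of them were lower at an unadjusted p under 0.05, against 2.87% of all genes. In 4711-1, 13 of 14, 12 of 14 and 16 of 17 were lower, with medians of -0.50, -0.41 and -0.44, against -0.079 over all genes. In 4711-18 the medians were -0.14, -0.083 and -0.15 against -0.099 over all genes. In 4716-11 they were -0.0050, 0.00040 and 0.0072 against -0.037 over all genes. Over 3 lines the medians were -0.17, -0.15 and -0.20, and without 4711-1 -0.064, -0.075 and -0.079, where the median of all genes was -0.070. Rescaling moved the medians over 3 lines to -0.082, -0.061 and -0.12 and that of all genes to 0.0064. In the Control samples of 4711-1 the medians were -0.21, -0.025 and -0.19. Btg2 and Plk2 of the arrest list are also among the early response genes above, and Plk2 was at 1066 and 212 TPM in 4711-1.

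The study clustered p53-responsive genes into modules, from other samples of these lines and of lines of a second class that stays viable. Module 5 was described as raised by p53 mainly in Type D cells, and the other modules as moving alike in both classes. Because the modules were chosen in the same lines, their direction is not independent evidence. Of 239 tested genes of Module 1, none was called, 15 were lower and 0 higher at an unadjusted p under 0.05, and 72 were lower and 6 higher in all lines. The shares over all genes were 2.87% and 0.466% at the unadjusted p and 26.7% and 6.69% in all lines, so the 72 are close to the share over all genes. Of 99 tested genes of Module 5, none was called, 4 were lower and 0 higher at an unadjusted p under 0.05, and 36 were lower and 2 higher in all lines. The 4 are close to the 2.87% of all genes. The per-line medians were -0.35, -0.092 and -0.013 for Module 1 and -0.29, -0.23 and -0.026 for Module 5 (4711-1, 4711-18, 4716-11). In the Control samples Module 5 had medians of 0.14, -0.15 and -0.060. After rescaling the medians over 3 lines moved from -0.15 to -0.067 for Module 1 and from -0.17 to -0.081 for Module 5, with that of all genes at 0.0064. Without 4711-1 they were -0.051 and -0.095 on the deposited scale, against -0.070 over all genes.

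Single genes of the modules gave the same picture of unequal lines. Csf2, the cytokine GM-CSF, was at 410, 368 and 158 TPM with sgBgal and 117, 247 and 89.97 TPM with sgPpia#4.1 and was lower in each (-1.06, SE 0.47, unadjusted p = 0.042). Tiparp, an ADP-ribosyltransferase, was at 39.1, 73.8 and 20.4 TPM against 15.2, 50.02 and 15.6 TPM (-0.74, SE 0.29). Cpeb4, a translational regulator, was at 17.9, 27.1 and 12.04 TPM against 10.7, 20.4 and 11.8 TPM (-0.37, SE 0.17). In Module 1, Mybl1, a transcription factor of the MYB family, was at 39.7, 44.8 and 46.5 TPM against 27.5, 38.1 and 41.1 TPM (-0.31, SE 0.10, unadjusted p = 0.0098). Ddias, an anti-apoptotic gene, was at 36.1, 58.0 and 36.1 TPM against 15.5, 47.5 and 29.0 TPM (-0.58, SE 0.24). In Module 6, 26 of 72 tested genes were lower and 3 higher in all lines, against 26.7% and 6.69% of all genes, with medians of -0.43, -0.15 and -0.0011 in 4711-1, 4711-18 and 4716-11, and 6 were lower at an unadjusted p under 0.05, against 2.87% of all genes.

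**Figure D5:**
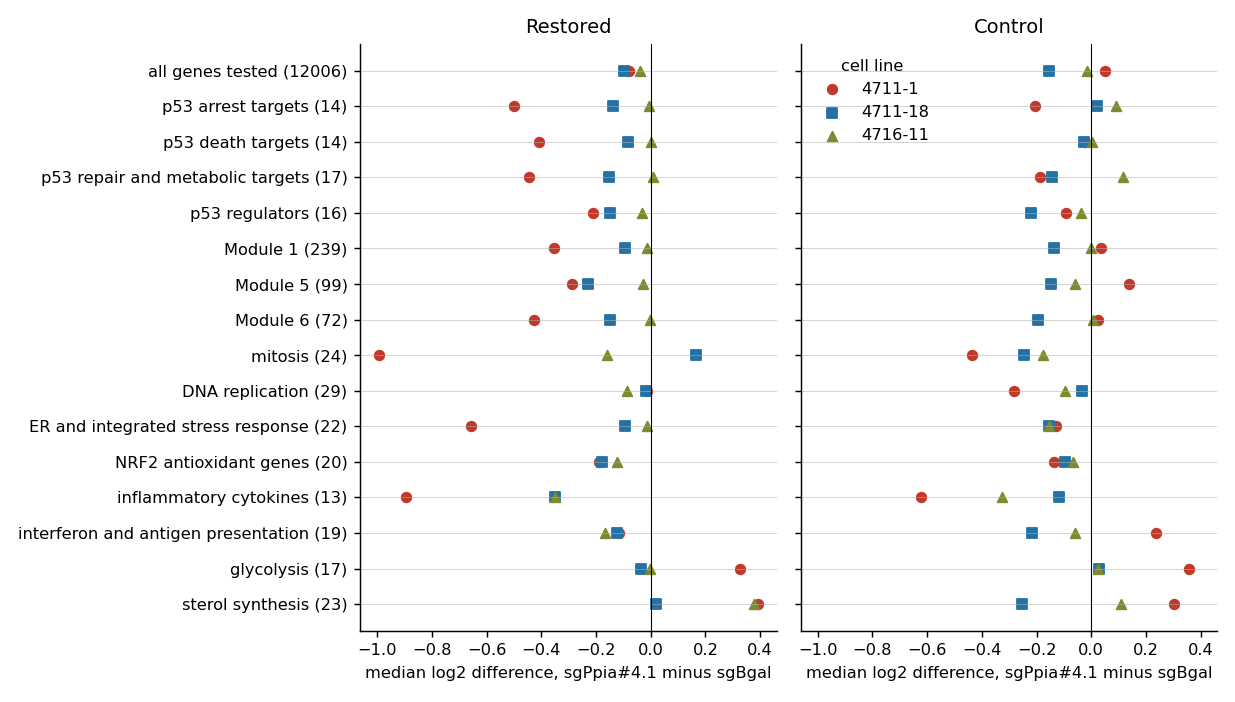
Median log2 difference between sgPpia#4.1 and sgBgal for all genes tested and for 15 gene lists, 1 point per cell line, in Restored (left) and Control cells (right), with the number of tested genes in brackets. In Restored cells the points of 4711-1 lie left of the others for mitosis, inflammatory cytokines, stress response genes and the p53 target lists, and those of 4711-1 and 4716-11 lie at 0.39 and 0.38 for sterol synthesis.

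Genes of mitosis differed between the lines in direction. All 24 were lower in 4711-1 with a median of -0.99, and 12 of them by at least 1, whereas 19 of 24 were higher in 4711-18 with a median of 0.17. In 4716-11 23 of 24 were lower with a median of -0.16. Over all genes 2.81% were lower by at least 1 in 4711-1, and the medians were -0.079, -0.099 and -0.037 (4711-1, 4711-18, 4716-11). Cenpe, a kinetochore motor, was at 9.78, 4.82 and 13.1 TPM with sgBgal and 3.66, 4.203 and 9.78 TPM with sgPpia#4.1 (-0.58, SE 0.39). Mki67, the proliferation marker, was at 21.7, 4.40 and 28.2 TPM against 10.6, 5.65 and 23.9 TPM. No gene of the list reached an unadjusted p under 0.05, and the median without 4711-1 was -0.012. The 29 DNA replication genes had a median of -0.015 in 4711-1, where 18 were lower. In the Control samples mitosis genes had medians of -0.44, -0.25 and -0.18, and 27 of the 29 replication genes were lower in 4711-1 with a median of -0.28. In bulk RNA, fewer cells in mitosis and less of these RNAs per cell cannot be told apart.

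The endoplasmic reticulum and integrated stress response genes were lower in 4711-1 with a median of -0.66, against -0.094 and -0.014 in the other lines. Atf3, of the early response genes above, is also in this list. In Control cells the list had medians of -0.13, -0.16 and -0.16, against 0.052, -0.15 and -0.016 over all genes. In Restored cells Hspa5, the chaperone BiP, was at 850, 911 and 729 TPM with sgBgal and 323, 852 and 686 TPM with sgPpia#4.1. Dnajb9, its cochaperone, was at 180, 178 and 112 TPM against 113, 115 and 111 TPM (-0.43, SE 0.20, unadjusted p = 0.048). The NRF2 antioxidant genes had medians of -0.19, -0.18 and -0.12, against -0.079, -0.099 and -0.037 over all genes. Rescaling moved their median over 3 lines from -0.16 to -0.074 and that of all genes to 0.0064. In the deposited scale 8 of 20 were lower and 1 higher in all lines, against 26.7% and 6.69% of all genes. Gclc, the catalytic subunit partner of Gclm, was at 317, 481 and 403 TPM against 144, 379 and 310 TPM (-0.62, SE 0.27, unadjusted p = 0.040). Slc7a11, the cystine importer, was at 16.9, 65.0 and 6.33 TPM against 4.55, 37.7 and 4.76 TPM (-0.94, SE 0.60).

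Inflammatory cytokine genes were lower in each line at the level of the list, with medians of -0.90, -0.35 and -0.35. Over all genes the medians were -0.079, -0.099 and -0.037. In Control cells the list had medians of -0.62, -0.12 and -0.33, against 0.052, -0.15 and -0.016 over all genes. Of 13 tested in Restored cells, 4 were lower and 0 higher in all lines, which is close to the 26.7% and 6.69% of all genes. Csf2 alone was at an unadjusted p under 0.05. Csf1, the macrophage growth factor, was at 52.1, 74.7 and 61.2 TPM with sgBgal and 25.3, 75.9 and 50.9 TPM with sgPpia#4.1. Of 19 interferon and antigen presentation genes, 6 were lower and 1 higher in all lines, again close to the shares over all genes, and 3 were lower at an unadjusted p under 0.05, against 2.87% of all genes. These were Stat2, Psmb9 and Ddx58, all at low levels. Of 10 necroptosis and pyroptosis genes 5 were lower in all lines, against 26.7% of all genes, with a median of -0.15 against -0.075 over all genes, and Gsdme, a membrane-pore gasdermin, had the largest moderated t (-0.24, SE 0.14). Within the permeability pore list, Tspo was higher in all lines and Ppif lower.

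Sterol synthesis was the list with the highest median, 0.29 over 3 lines. Of 23 tested genes 10 were higher and 0 lower in all lines, against 6.69% and 26.7% of all genes, and 2 were higher at an unadjusted p under 0.05, against 0.466% of all genes. In 4716-11 all 23 were higher with a median of 0.38, in 4711-1 19 were higher with a median of 0.39, and in 4711-18 13 were higher with a median of 0.018. Without 4711-1 the median was 0.23 and after rescaling 0.37. Nsdhl, which removes carbon from the sterol ring, was at 33.8, 23.1 and 45.8 TPM with sgBgal and 64.9, 27.8 and 73.2 TPM with sgPpia#4.1 (0.61, SE 0.23, unadjusted p = 0.019). Tm7sf2, a sterol reductase, was at 38.9, 13.2 and 28.9 TPM against 65.0, 17.5 and 37.6 TPM (0.49, SE 0.17, unadjusted p = 0.013). Fdft1, the squalene synthase, was at 55.0, 35.2 and 56.4 TPM against 101, 36.3 and 79.6 TPM. Mvd, of the mevalonate pathway, was at 40.0, 23.4 and 52.6 TPM against 79.9, 23.1 and 70.7 TPM. In the Control samples the list had medians of 0.30, -0.25 and 0.11.

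The promoters of the sterol synthesis genes were searched in RefSeq windows (GRCm38.p6) of 300 bases around the transcription start, on both strands. The CCAAT motif was present in 16 of 16 listed sterol genes that had a window, and in 41.1% of all 27025 genes. The sterol response motif TCACNCCAC was in 1 of the 16 and in 1.44% of all genes. Neither motif contains the other, and a match describes letters, not binding. The 250 bases before the start are shown for 3 of the genes above and for Hmgcs1, the first enzyme of the list and the holder of both motifs, with the motifs in capitals. They lie at chr13:119690101-119690350, chrX:72918271-72918520 and chr8:122443423-122443672 and chr19:6067851-6068100, the last 2 on the minus strand, and are written 5' to 3' along the gene.
Hmgcs1: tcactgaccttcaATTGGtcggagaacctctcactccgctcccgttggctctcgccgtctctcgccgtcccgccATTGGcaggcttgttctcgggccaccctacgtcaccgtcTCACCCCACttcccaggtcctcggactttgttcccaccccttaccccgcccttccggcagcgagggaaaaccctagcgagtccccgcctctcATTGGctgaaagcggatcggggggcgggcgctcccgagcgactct
Nsdhl: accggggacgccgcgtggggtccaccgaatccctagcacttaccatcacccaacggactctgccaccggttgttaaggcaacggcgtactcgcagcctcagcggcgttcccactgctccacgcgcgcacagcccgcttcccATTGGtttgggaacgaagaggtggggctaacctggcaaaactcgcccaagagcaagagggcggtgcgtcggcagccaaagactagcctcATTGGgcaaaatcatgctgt
Mvd: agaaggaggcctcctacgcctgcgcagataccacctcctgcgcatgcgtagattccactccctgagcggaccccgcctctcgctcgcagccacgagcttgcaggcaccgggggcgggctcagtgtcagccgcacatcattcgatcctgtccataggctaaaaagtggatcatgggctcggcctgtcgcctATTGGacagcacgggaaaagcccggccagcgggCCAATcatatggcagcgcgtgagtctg
Tm7sf2: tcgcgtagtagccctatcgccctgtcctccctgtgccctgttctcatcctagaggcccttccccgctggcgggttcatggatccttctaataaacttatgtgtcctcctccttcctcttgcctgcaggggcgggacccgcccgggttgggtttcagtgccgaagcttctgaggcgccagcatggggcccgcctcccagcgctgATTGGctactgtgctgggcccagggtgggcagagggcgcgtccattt

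Differences also followed the length of the annotated transcripts, known for 11804 of the genes (98.3%). In 4711-18 the median difference was -0.051 for transcripts of 200 to 1000 bases, -0.15 for 2000 to 4000 bases and -0.23 above 6000 bases. In 4711-1 it was -0.054, -0.13 and -0.16 and in 4716-11 -0.031, -0.048 and -0.054 over the same classes. For the 185 entries of up to 200 bases it was -0.47 in 4711-1, -0.039 in 4711-18 and -0.14 in 4716-11. The part of transcript length in the list medians was not tested.

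The difference between the guides was then set against the same difference without p53. In Control cells 0 of 12006 genes were called in the same fit (0%), with 87 lower (0.725%) and 51 higher (0.425%) at an unadjusted p under 0.05. In all 3 lines 1960 genes (16.3%) were lower and 874 (7.28%) higher. The interaction, which asks whether the guide difference itself changes with p53, called 0 genes at an adjusted p under 0.05, and 52 lower (0.433%) and 12 higher (0.1%) had an unadjusted p under 0.05. For Ppia the interaction was 0.17 (SE 0.21, unadjusted p = 0.43). An effect of sgPpia#4.1 that is particular to cells with p53 was therefore not shown for any gene by this fit.

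The labelled cell type was compared with its markers. Of 10 neuroendocrine markers, 6 were under 1 TPM in all 6 samples, among them Chga, Chgb, Calca, Dll3 and Neurod1. Insm1 was at 2.18 and 1.78 TPM in 4711-1 and near 0 elsewhere, and Syp (3.50 to 7.12 TPM), Uchl1 (1.47 to 2.62 TPM) and Ncam1 (8.22 to 29.7 TPM) were tested and not called. Most neuroendocrine markers that define small cell lung cancer were thus under 1 TPM, and the epithelial keratin Krt8 was at 2149 to 5826 TPM. Fibroblast and endothelial markers were all under 1 TPM in all 6 samples. Of the leukocyte markers 8 of 10 were under 1 TPM, and their summed level, mostly Cd68, was 29.4 to 42.8 TPM with sgBgal and 22.9 to 35.03 TPM with sgPpia#4.1.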

How the data were processed

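RNA from Type D mouse small cell lung cancer cell lines was sequenced for the authors by Azenta Life Sciences, and the deposited table holds TPM for 25239 genes in 18 samples. Per the labels the processing used bcl2fastq 2.17 and HISAT2, and the builds mm10 and GRCm39 are both named. Which of them served the deposited values is not given in the sources used here. TPM keep no read total, so absolute depth is unknown and no counting intervals were made. Relative depth came from the steps between low values and ranged from 1 to 1.78.

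Groups were taken from the labels. Values were tested as log2(TPM + 1) with limma 3.58.1 in R 4.3.3, with 6 condition means and the cell line as a block (residual df 10), and p-values were adjusted over the 12006 genes by Benjamini-Hochberg. This scale understates differences of low genes. The block follows the cell line in the labels, and the paired samples' deviations from their group means correlated at 0.75, 0.87 and 0.82. The script was tested on simulated data. The members and the gene lists were chosen with earlier results of these data known. Symbols missing from the table were replaced by a RefSeq synonym where exactly 1 gene matched. Named genes were the cyclophilins, called genes, the 10 smallest p in each direction among genes of the same sign in all lines with a mean of at least 5 TPM, the 5 largest differences in each direction, up to 4 genes per list and 6 in Modules 1 and 5 by moderated t, and genes within 250 kb of Ppia, and not all are printed. Genes outside this rule, such as Trp53, Cdkn1a, Bax, Mki67, Krt8, Gclm, Hmgcs1 and the early response genes, were chosen after their values were seen. Alternatives were no block, the 6 samples alone, a pseudocount of 0.1, rescaling, other filters, another variance model and leaving out each line. Transcript lengths and exons came from GENCODE M21 (GRCm38). Guide sequences are not used here. Some genes of the lists are not reported here.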

Additional observations from a re-analysis of the deposited data

How the results depend on the processing

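No gene was called in Restored or Control cells, and none in the interaction, under any alternative that was run, and Ppia stayed lower in each, from -0.50 to -0.34, with adjusted p from 0.658 to 0.9999. Counts at an unadjusted p under 0.05 depended on the settings, and these counts were added after seeing the data. They were 9 higher and 43 lower without the replicate block, 110 and 739 with only the 6 samples, 183 and 125 after median-of-ratios rescaling and 172 and 668 without a filter. Leaving out each line gave 31 to 167 higher and 116 to 668 lower genes. The median over all genes moved to 0.0064 after rescaling and -0.034 without a filter, and the NRF2 median from -0.16 to -0.074 after rescaling. After rescaling the sign turned for Ppib (0.057), Ppic (0.080), Ppie (0.071), Ppil2 (0.028), Ppil4 (0.015) and Cwc27 (0.069), all near 0 in the reported fit. Leaving out each line in turn moved the difference across 0 for Ppib (-0.12 to 0.049), Ppic (-0.057 to 0.071), Ppie (-0.089 to 0.030), Ppih (-0.017 to 0.10), Ppil3 (-0.10 to 0.15), Ppil4 (-0.14 to 0.026) and Ranbp2 (-0.19 to 0.0061). The cause of these changes was not tested. The interaction and the Control comparison could not be fitted on the 6 Restored samples alone. With 1 library per guide and line, a difference seen in a single line has no replicate check.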

Other observations

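The cytosolic ribosomal protein genes, a list formed after the values were seen, had their highest median in 4711-18. Of 81 tested, 17 were higher and 1 lower in all lines, against 6.69% and 26.7% of all genes, with medians of -0.026 in 4711-1, 0.20 in 4711-18 and 0.030 in 4716-11, and -0.019, 0.17 and 0.11 in Control cells. None was at an unadjusted p under 0.05 in the limma fit.

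Among 15 ferroptosis and iron genes, Gpx4, the peroxidase that removes lipid peroxides, was at 555, 683 and 749 TPM with sgBgal and 632, 852 and 932 TPM with sgPpia#4.1. Slc40a1, the iron exporter, was at 3.60, 3.24 and 3.32 TPM against 1.18, 2.203 and 2.63 TPM. Gpx4 was higher and Slc40a1 lower in each line, by 0.27 and -0.58 in the mean, and their adjusted p in limma was 0.955. The 107 tested genes of the study's Type D signature had medians of -0.0034, -0.050 and -0.079 (4711-1, 4711-18, 4716-11), and the 33 of its Type V signature -0.18, -0.12 and -0.034.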
